A study of Mus musculus with 8 samples.

Results

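The variable (V) genes of the T cell receptor alpha and beta chains, Trav and Trbv, were examined in 8 RNA sequencing libraries of mouse regulatory T (Treg) cells. The members were chosen by their measured level, as every row whose symbol starts with Trav or Trbv and whose mean over the 8 libraries is at least 10 normalized counts. Of 163 such rows among 52459 in the whole table, 62 passed, 41 of 128 Trav rows and 21 of 35 Trbv rows. Among the rest, 51 Trav and 8 Trbv rows held 0 reads in every library, and 36 Trav and 6 Trbv rows held reads but a lower mean. The 2 members of each chain nearest to the limit were Trav12-1 and Trav8-2, with means of 10.4 and 10.1, and Trbv5 and Trbv4, with 16.4 and 10.5. Just outside lay Trav15-2-dv6-2 and Trav2, at 9.92 and 9.57, and Trbv30 and Trbv21, at 7.28 and 2.28.

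Treg cells suppress other lymphocytes and depend on the transcription factor Foxp3. In the thymus, each developing T cell joins a V gene to a joining (J) gene at the alpha locus, and a V, a diversity (D) and a J gene at the beta locus, and splices the product to a constant gene, Trac or one of Trbc1 and Trbc2. The V gene contributes the first contact loops of the receptor and the start of the third, so a population of T cells with many clones uses many V genes. The level of a V gene in bulk RNA therefore holds both the number of cells that use it and the receptor RNA in each of them, and fewer cells of a type and less RNA per cell cannot be told apart.

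Per the labels, all 8 libraries are of Foxp3+CD25+ Treg cells of C57BL/6 mice. The methods state that both genotypes were sorted as CD4+CD25hi cells from pooled spleens and lymph nodes of several healthy female mice heterozygous for Foxp3-YFPcre, in which X inactivation leaves Cre in some Treg cells only. The cells labelled WT carried the floxed Stim1 and Stim2 alleles without expressing Cre, and those labelled DKO (Stim1 fl/f and Stim2 fl/fll together with Foxp3-YFPcre) expressed Cre from the Foxp3 locus. STIM1 and STIM2 sense the calcium store and open the channels through which a triggered T cell receptor lets calcium in. Each genotype was sequenced unstimulated (WT replicates 3 and 4, DKO replicates 1 and 2) and after 16 h with 1 µg/ml of plate-bound antibody to CD3 and CD28 (replicates 1 and 2 of each), so each group has 2 libraries. The unstimulated libraries were run in one sequencing lane and the stimulated ones in another, so stimulation cannot be told apart from lane, whereas both genotypes lie in each lane.

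The deposited values, normalized counts, are reads per gene after division by a size factor, 1 for each library. A library had 11851853 to 16306540 reads on genes, of which 776 to 1246 lay on Trav members and 1097 to 3014 on Trbv members. The median member had 16 to 27 reads in the Trav set and 30 to 144 in the Trbv set, so single Trbv genes were measured more precisely than single Trav genes. Counts over the whole of Stim1 were 1139 and 1377 in the unstimulated WT libraries and 1538 and 1868 in those labelled DKO, and after stimulation 645 and 673 against 552 and 642. Stim2 had 906 and 908 against 904 and 744, and then 665 and 782 against 620 and 696. Both unstimulated libraries labelled DKO thus lay above both WT libraries for Stim1, against their label, and below them for Stim2, and after stimulation both lay below for Stim1 while Stim2 overlapped. Neither gene was called between genotypes (limma adjusted p of 0.236 to 0.827), and these totals include exons outside the floxed ones. By other measures, the paper reports ablation of both genes by RT-PCR in Treg cells of males. It also reports that Cre-expressing Treg cells of heterozygous females lacked store-operated calcium entry. DKO replicate 1 of the unstimulated cells stands apart, with 9230 normalized counts summed over 8 macrophage markers against 218 and 264 in WT, and 1402 in the other DKO library. Summed over 8 B cell markers it had 2690, against 581 in the other unstimulated DKO library and 294 and 281 in WT. After stimulation, replicate 1 of either genotype held more B cell RNA than replicate 2, with 959 against 180 in WT and 1444 against 264 in DKO libraries. Summed markers of CD4 T and Treg cells ran from 40109 to 112665 and none of the 6 was at 0, although 5 of them were lower in both DKO libraries than in both WT libraries in each state.

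The Trbv genes whose levels carry most of the results are shown by the last 48 bases of their coding sequence, with the last in-frame cysteine codon in capitals. That cysteine begins the third contact loop, and the bases after it are the germline contribution of the V gene to the loop. The first 4 are among the 5 genes of the chain with the highest mean, and the last 4 had the lowest log2 fold changes of the chain after stimulation in DKO cells.
Trbv2: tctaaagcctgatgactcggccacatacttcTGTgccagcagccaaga
Trbv3: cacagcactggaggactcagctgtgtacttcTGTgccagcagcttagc
Trbv13-2: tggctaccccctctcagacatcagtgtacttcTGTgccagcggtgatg
Trbv19: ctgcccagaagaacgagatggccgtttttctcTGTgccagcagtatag
Trbv12-1: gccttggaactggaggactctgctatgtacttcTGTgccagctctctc
Trbv12-2: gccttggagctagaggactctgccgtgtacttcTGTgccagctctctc
Trbv14: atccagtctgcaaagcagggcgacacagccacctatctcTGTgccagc
Trbv17: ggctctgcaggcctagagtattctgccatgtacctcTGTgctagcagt
The sequences are those of GENCODE vM1 on NCBIM37, where these 8 genes lie on the plus strand of chromosome 6. The leaders are Trbv2 at chr6:40997555-40997994, Trbv3 at chr6:40998393-40998823, Trbv13-2 at chr6:41071416-41071831 and Trbv19 at chr6:41128588-41129047. The others are Trbv12-1 at chr6:41063566-41064066, Trbv12-2 at chr6:41068863-41069363, Trbv14 at chr6:41085166-41085608 and Trbv17 at chr6:41113091-41113550. Of the 20 Trbv members found there, Trbv31 is on the minus strand.

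A coding sequence was found for 20 of the 21 Trbv members (all but Trbv24), 319 to 372 bases long. The nearest relatives, Trbv12-1 and Trbv12-2, match at 328 of 372 aligned bases, or 88.2%, and share no run of 50 bases, the read length stated in the methods. Only Trbv13-2 and Trbv13-3 share such a run, at 1 of 270 and 1 of 291 possible start positions. Of the 41 Trav members, all placed by RefSeq on chromosome 14 between 52427967 and 53876752 of GRCm38.p6, 13 have a coding sequence in that set. Shared runs of 50 bases were found in 8 of those 13, up to 312 of 400 positions in Trav7d-4, whose locus was duplicated in this strain into copies marked d and n. The authors kept uniquely aligned reads, so levels of single Trav genes with near copies are uncertain. Members marked d or n held 14.5% to 20.8% of the Trav level of a library, which leaves out unmarked members with shared runs, such as Trav7-4 at 300 of 400 positions, and the 28 Trav members without a sequence that were not compared. RefSeq annotates Trbv29 as a V segment pseudogene and the other 61 members as V segments.

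Among the members, the level was spread over many genes of each chain. The effective number of genes in use (the exponential of the Shannon entropy of the shares, which equals the number of genes if all are used alike) was 14.0 to 16.8 of 21 for Trbv and 29.2 to 36.2 of 41 for Trav. No single gene passed 17.8% of the Trbv level or 10.9% of the Trav level in any library. The 95% Wilson intervals of these shares reached 0.194 to 2.11 percentage points to each side for Trbv and 0.247 to 1.89 for Trav, and they cover counting error only.

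The order of the Trbv genes was alike in libraries of one state. Between the 2 libraries of a group, Spearman's rho over the 21 genes was 0.91 to 0.96, between genotypes in the same state 0.90 to 0.97, and between states of one genotype 0.76 to 0.92. Over the 41 Trav genes, the same values were 0.49 to 0.74, 0.25 to 0.71 and 0.38 to 0.70. These are correlations across genes, which are no replicates and share their library, length and base composition. In reads, the spread between the 2 libraries of a group exceeded counting error in both chains, with a chi-square per degree of freedom of 1.62 to 4.15 over Trbv and 1.78 to 5.63 over Trav. Other genes in the same range of means had 3.16 to 11.7.

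Trbv2 and Trbv3, neighbours near the start of the beta locus, had the highest mean levels, also per kilobase of coding sequence. The level of Trbv2, in normalized counts, was 259 and 249.7 in unstimulated WT libraries, 299.9 and 243 in those labelled DKO, 104 and 116 in stimulated WT and 174 and 182 in stimulated DKO libraries. Trbv3, in the same order of groups, had 269 and 256, 333 and 248, 68.6 and 82.8, and 91.3 and 137. Every stimulated library lay below every unstimulated one for both genes. Trbv13-2, which encodes Vbeta8.2, followed with 206 and 225, 284 and 220.4, 76.4 and 79.0, and 99.3 and 152. Trbv1 had 195 and 119.7, 221 and 158, 94.3 and 93.4, and 148 and 157, and Trbv19, which encodes Vbeta6, had 188 and 139, 192 and 139, 94.3 and 170.1, and 132 and 123. For these last 2 genes the states overlapped. Trbv15, Trbv16 and Trbv20, the next in level, ran from 155 to 256 in unstimulated and from 35.1 to 105 in stimulated libraries. Per kilobase, the first 4 places were the same, Trbv15 passed Trbv19 and Trbv20 passed Trbv16. The remaining 13 members ran down to Trbv4, with 3.97 to 16.2.

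**Figure D1:**
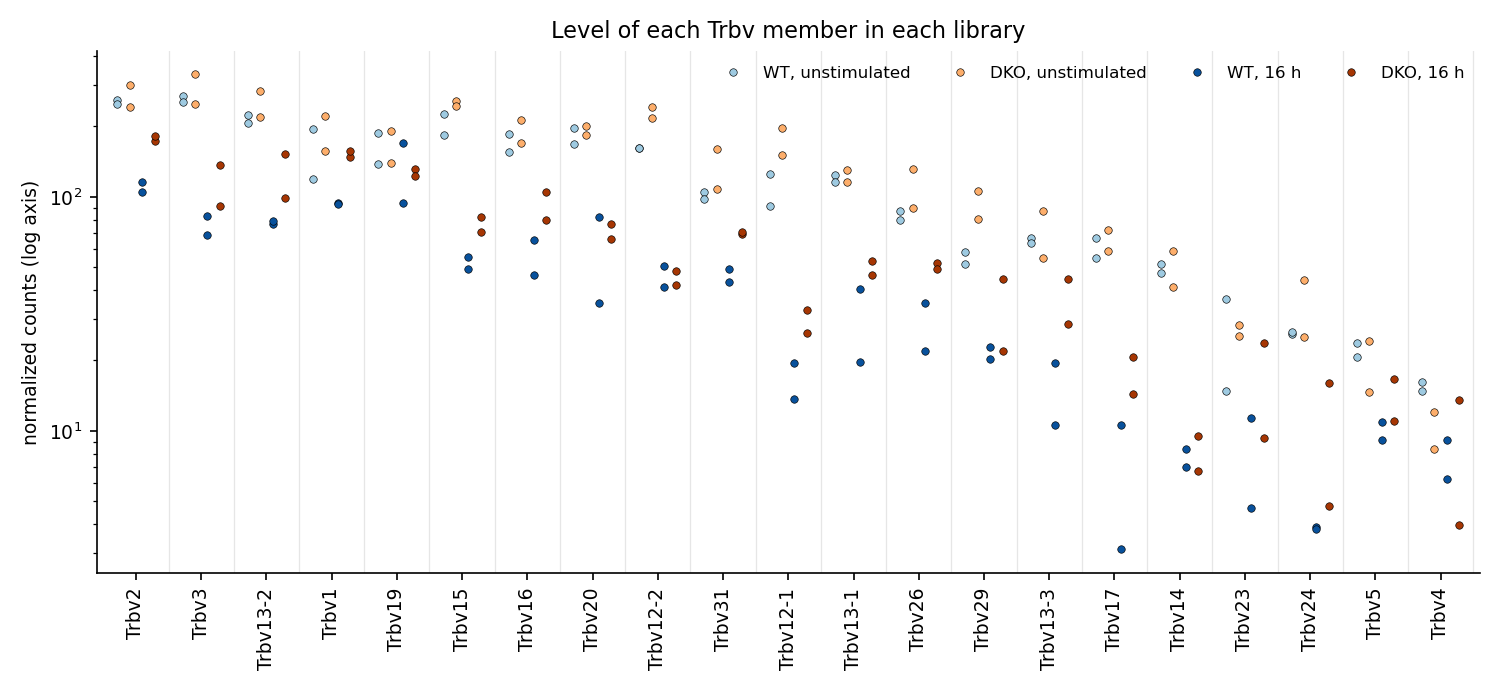
Level of the 21 Trbv members in each of the 8 libraries (1 point per library, normalized counts on a log axis), ordered by mean level, with the 4 groups side by side within each gene. The dark points of the stimulated libraries lie below the light points for most genes, and the states overlap for Trbv1, Trbv4, Trbv5, Trbv19 and Trbv23.

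The most used Trav genes were lower and less steady between libraries. Trav14-1 had the highest mean, with 84.2 and 73.9 normalized counts in unstimulated WT, 59.8 and 88.2 in unstimulated DKO, 42.1 and 52.4 in stimulated WT and 51.6 and 54.9 in stimulated DKO libraries. Trav12-2 came next and ranged from 16.4 to 84.2, followed by Trav13-1 with 32.7 to 83.9. Trav5-1 had 41.0 and 50.2, 54.5 and 56.1, 14.8 and 22.8, and then 27.8 and 102 in the stimulated DKO libraries, so its highest value came from one library of a group. Trav7-5 ranged from 20.6 to 75.5, Trav14d-3-dv8 from 25.1 to 51.7 and Trav14-2 from 22.0 to 61.9. Of these genes, Trav14-1 led in 3 libraries, Trav12-2 in 2, and Trav13-1, Trav7-5 and Trav5-1 in 1 each, so that the leader differed between libraries of a group in all 4 groups. The gene Trav4-4-dv10, whose dv suffix marks V genes that can also join to the delta chain, had 63.7 and 60.6 in unstimulated WT against 29.4 and 32.0 in unstimulated DKO libraries. After stimulation the groups overlapped, at 17.1 and 40.2 against 32.6 and 26.2.

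**Figure D2:**
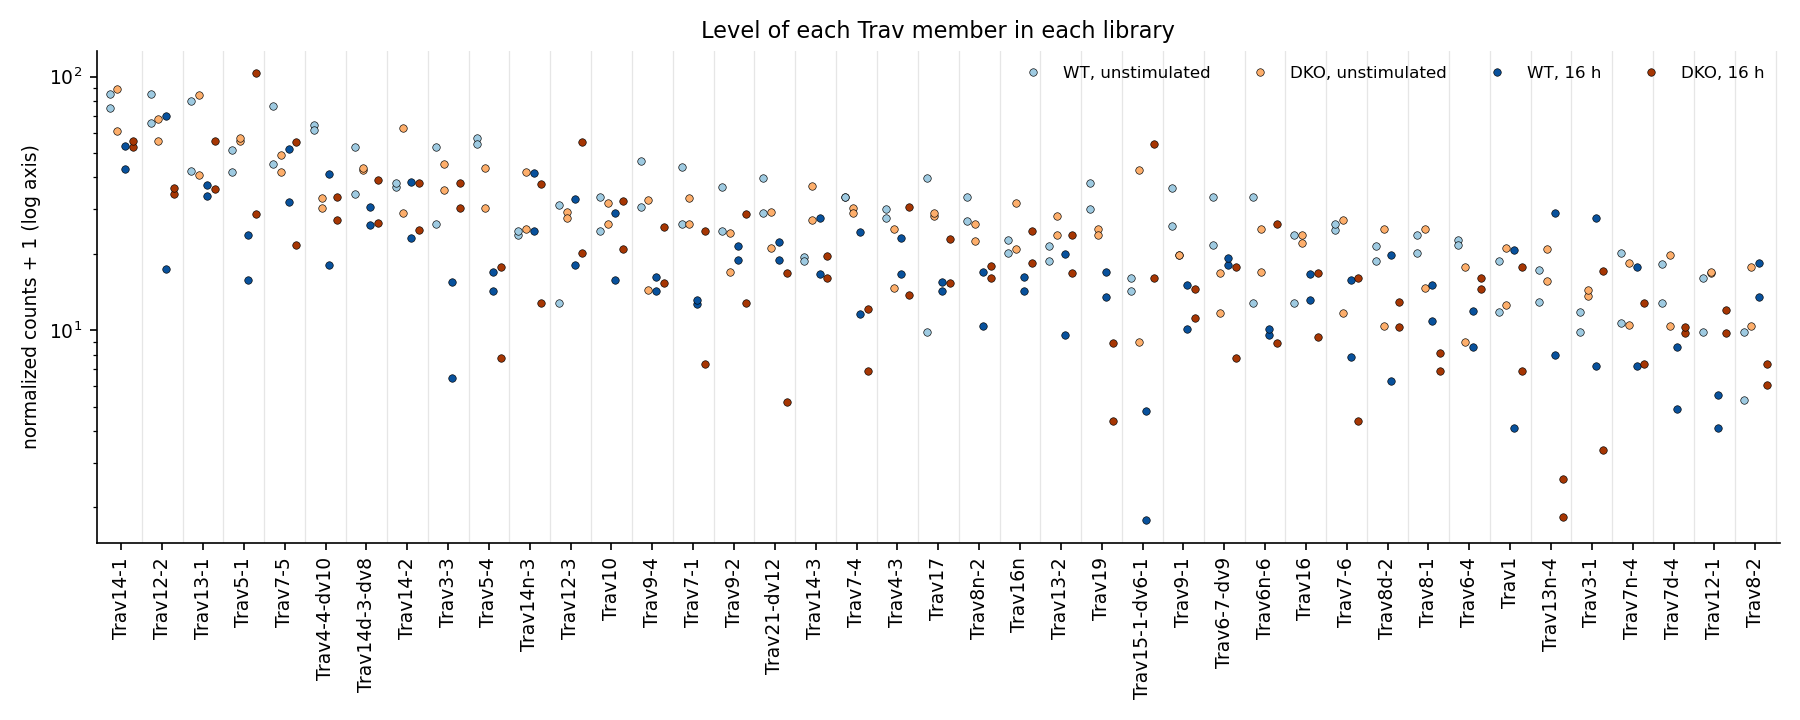
Level of the 41 Trav members in each of the 8 libraries (1 point per library, normalized counts plus 1 on a log axis), ordered by mean level, with the 4 groups side by side. Groups of 2 often spread as far within a group as between groups, as for Trav5-1, with 27.8 and 102 in stimulated DKO libraries.

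After stimulation, the summed level of the Trbv genes was lower in both genotypes. The 21 members together had 2624 and 2387 normalized counts in the unstimulated WT libraries and 855 and 954 in the stimulated ones, a ratio of means of 0.361. In libraries labelled DKO they had 3160.4 and 2735 before and 1293 and 1362 after, a ratio of 0.450. The 41 Trav members fell less in sum, from 1345 and 1146 to 661 and 825 in WT, a ratio of 0.596, and from 1203 and 1084 to 725 and 936 in DKO libraries, a ratio of 0.726. In normalized counts, states did not overlap for either chain in either genotype. As a share of all reads on genes, the Trav sums overlapped, at 0.00764% and 0.00655% against 0.00546% and 0.00667% in WT and 0.00773% and 0.00647% against 0.00580% and 0.00771% in DKO libraries, whereas the Trbv sums did not. With equal totals, the log2 ratio of the Trav sums was -0.23 in WT and -0.072 in DKO cells, in place of -0.75 and -0.46, and that of the Trbv sums was -0.95 and -0.77, in place of -1.47 and -1.15. With 2 libraries against 2, an exact permutation test cannot give a 2-sided p under 0.333, so these sums carry no call. The ratio of Trbv to Trav, which does not depend on the scaling of a library, went from 1.95 and 2.08 to 1.29 and 1.16 in WT, and from 2.63 and 2.52 to 1.78 and 1.45 in DKO libraries.

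**Figure D3:**
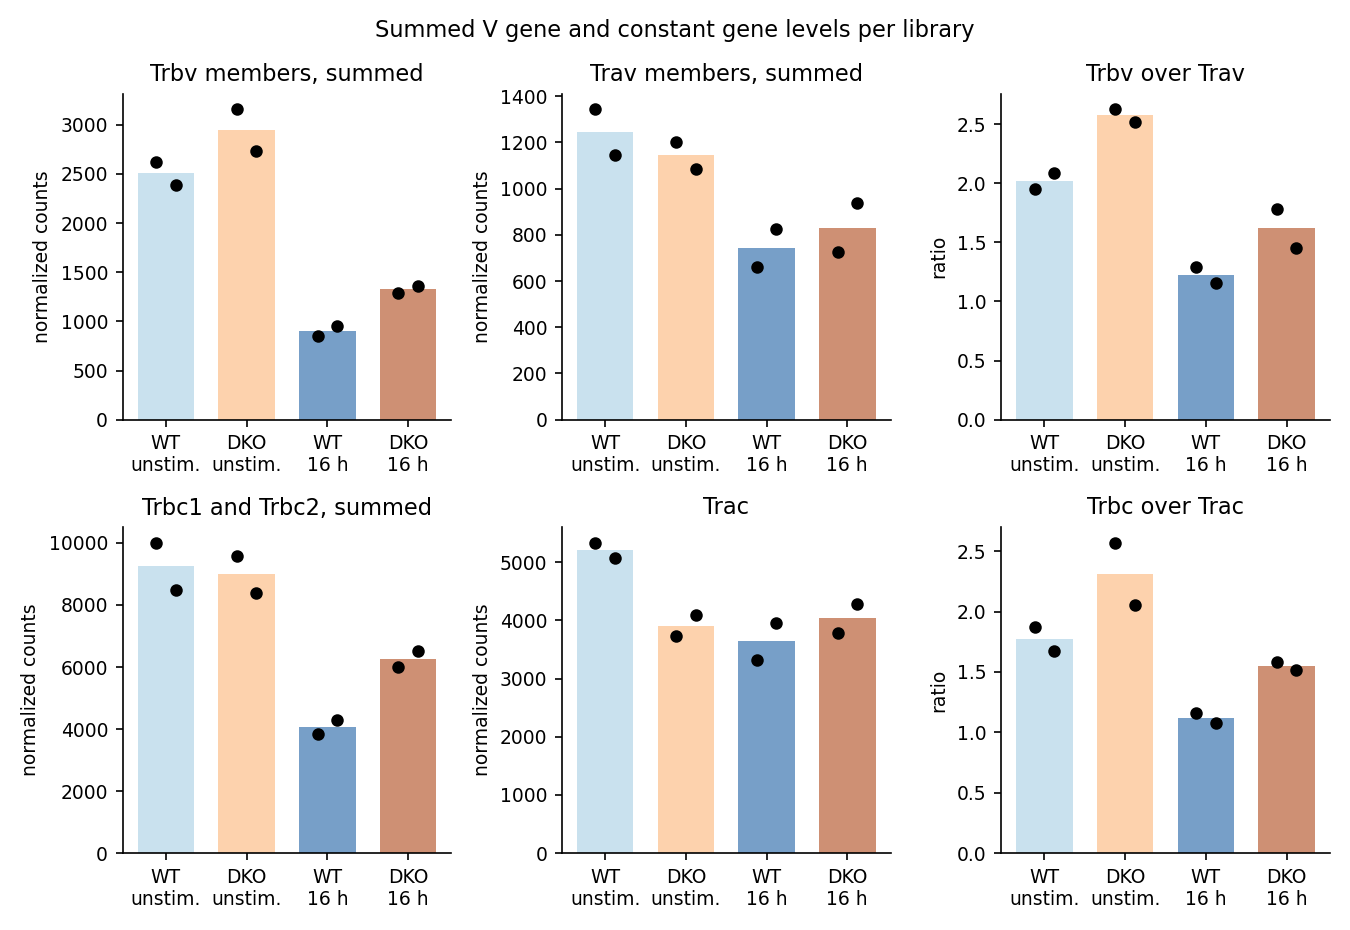
Summed level of the Trbv and of the Trav members, their ratio, and the same for the constant genes Trbc1 plus Trbc2 and Trac, by group (bars are means of 2 libraries, points are libraries, all axes start at 0). The Trbv sum and both ratios lie higher in both DKO libraries than in both WT libraries of the same state, and lower after stimulation.

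Gene by gene, most Trbv genes and few of the less precisely measured Trav genes were called lower after stimulation. In a limma fit to 15419 genes with a mean of at least 10, on log2 values after adding 1, a gene was called when it differed over 1.5-fold with a p under 0.05 after Benjamini-Hochberg adjustment. By this, 15 of 21 Trbv and 2 of 41 Trav members were called lower in WT cells, against 13.1% of all genes. In DKO cells, 11 of 21 Trbv and 2 of 41 Trav members were called lower, against 12% of all genes. No V gene was called higher in either, where 10.2% and 13% of all genes were. The log2 fold change was below 0 for 21 of 21 Trbv members in both genotypes and for 35 and 37 of 41 Trav members, against 49.7% and 51.3% of all genes. Both stimulated libraries were below both unstimulated ones for 20 Trbv and 25 Trav members in WT, against 36% of all genes, and for 19 and 18 in DKO cells, against 30.6%. A member can pass the limit on the mean through its unstimulated libraries alone, where it is high and so had to differ. The stimulated libraries of 3 Trbv members (Trbv4, Trbv14 and Trbv24) and 5 Trav members (Trav7d-4, Trav8-1, Trav12-1, Trav13n-4 and Trav19) had a mean below 10. Of the other 18 Trbv and 36 Trav members, 13 and 2 were called in WT and 10 and 0 in DKO cells. In the stimulated WT libraries alone, only 16 Trbv and 35 Trav members reached a mean of 10. The WT counts of 13 and 2 thus still include Trbv17 and Trav3-3, with means of 6.875 and 9.945 there.

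The median log2 fold change was -1.61 over the Trbv members and -0.73 over the Trav members in WT cells, and -1.08 and -0.51 in DKO cells, beside 0.01 and -0.03 over all genes tested. Libraries rescaled to equal totals moved the median of all genes to 0.52 in WT and 0.35 in DKO cells, and the Trbv medians then lay 1.61 and 1.05 below it, against 1.61 and 1.05 below as deposited. The number of calls fell when a library was left out. In WT cells, 9 and 8 V genes were called lower without stimulated replicate 1 or 2, and 5 and 4 without unstimulated replicate 3 or 4, in place of 17. In DKO cells, 9 and 7 were called without stimulated replicate 1 or 2, of which 7 and 6 were among the 13 called with all libraries. Without either unstimulated DKO library, or either unstimulated WT library, which enter the shared spread, 5 were called in DKO cells.

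Trbv17, from the middle of the beta locus, changed most in WT cells, although its mean in stimulated WT libraries, 6.875, was below the limit. It had 55 and 66.5 normalized counts unstimulated and 3.12 and 10.6 after 16 h, a log2 fold change of -3.15 (standard error 0.60, adjusted p = 0.00579), and in DKO libraries 72.3 and 58.8 against 20.6 and 14.3 (-1.86, standard error 0.60, adjusted p = 0.0444). Trbv12-1 went from 91.7 and 126 to 19.5 and 13.7 in WT (-2.64, standard error 0.41, adjusted p = 0.00257) and from 151 and 196 to 26.2 and 32.9 in DKO libraries (-2.51, standard error 0.41, adjusted p = 0.00252). Its close relative Trbv12-2 was also called lower in both genotypes, and the difference between these genes was not tested. Trbv12-2 had 162 and 162 before and 41.3 and 50.9 after in WT (-1.80, adjusted p = 0.00415), and 218 and 243 against 42.1 and 48.1 in DKO libraries (-2.33, adjusted p = 0.00115). Trbv14, which encodes Vbeta13, had 47.5 and 51.7 against 7.01 and 8.35 in WT (-2.55, adjusted p = 0.00954), and 58.7 and 41.4 against 9.53 and 6.75 in DKO libraries (-2.48, adjusted p = 0.00962), and it passed the limit on the mean through its unstimulated libraries alone. None of these 4 genes overlapped between states in either genotype.

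Trbv24 and Trbv13-3 are among 5 Trbv genes that were called in WT and not in DKO cells. Trbv24 had 25.9 and 26.6 against 3.90 and 3.80 in WT libraries (-2.49, adjusted p = 0.0308), and 25.2 and 44.1 against 4.76 and 16.0 in DKO libraries (-1.79, adjusted p = 0.0915), and it too passed the limit through the unstimulated libraries alone. Trbv13-3, a Vbeta8 gene, had 66.9 and 63.5 against 19.5 and 10.6 (-2.10, adjusted p = 0.0136), and 87.0 and 54.8 against 44.5 and 28.7 (-0.93, adjusted p = 0.187). A call in one genotype does not show that the genotypes differ, and the interaction of genotype and stimulation called none of the 62 members, as it called 0% of all genes. Of the leading genes, Trbv2 was called in WT (-1.20, standard error 0.26, adjusted p = 0.00966) and not in DKO cells (-0.60, adjusted p = 0.113). Trbv3 was called in both, at -1.78 and -1.36 (adjusted p = 0.00395 and 0.0113), as was Trbv15, at -1.95 and -1.71 (adjusted p = 0.00238 and 0.00335).

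At the other end, 5 Trbv members were called in neither genotype. Trbv19 had log2 fold changes of -0.35 in WT and -0.35 in DKO cells (standard error 0.36 in each), and Trbv1 had -0.70 and -0.29 (standard error 0.33). Rescaling to equal totals turned the sign, to 0.17 and 0.033 for Trbv19 in WT and DKO cells and to 0.10 for Trbv1 in DKO cells, and Trbv19 reached 0.074 in WT cells without stimulated WT replicate 1. Trbv4, Trbv5 and Trbv23, the others, were low genes with means of 10.5 to 19.3. Of the 17 genes called in WT and 13 in DKO cells, 10 were shared, and all 10 were Trbv genes: Trbv3, Trbv12-1, Trbv12-2, Trbv13-1, Trbv13-2, Trbv14, Trbv15, Trbv16, Trbv17 and Trbv20. Of the 10, Trbv14 passed the limit on the mean through its unstimulated libraries alone, and Trbv17 had a mean of 6.875 in stimulated WT libraries. The 17 also hold Trbv24, and the 13 also hold Trav13n-4 and Trav19, which passed in the same way as Trbv14. For such genes the limit favoured a lower level after stimulation. The overlap of calls over all genes was not counted, so this number does not set V genes apart from other genes. The WT and DKO fold changes rest on different libraries, but the calls in both use a spread shared by the 4 groups and are not independent. Over the 21 Trbv genes, the WT and DKO log2 fold changes had a Pearson r of 0.81 and a Spearman's rho of 0.86. Over the 41 Trav genes these were -0.15 and -0.08, both as descriptions across genes that share an annotation and a lane.

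**Figure D4:**
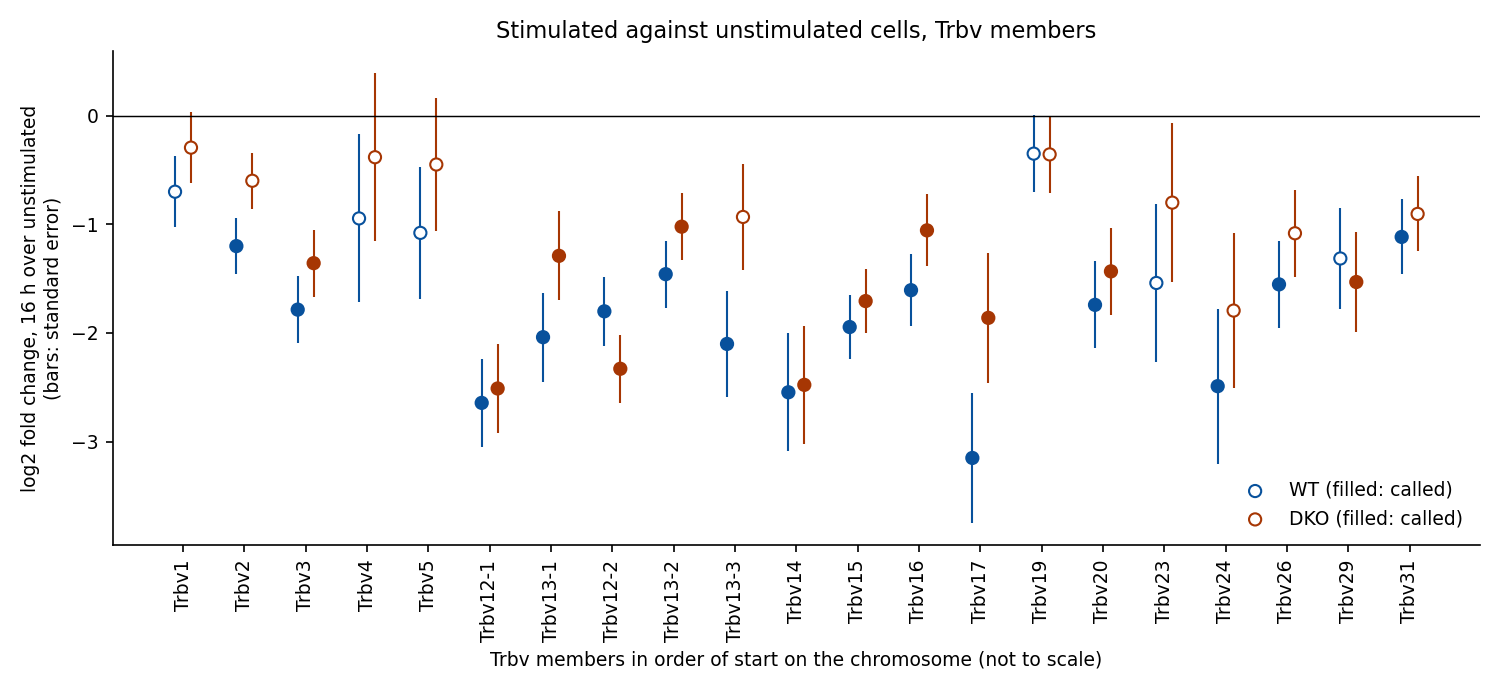
Log2 fold change of stimulated over unstimulated cells (y axis) for the 21 Trbv members in the order of their start on chromosome 6 in RefSeq GRCm38.p6 (x axis, not to scale), in WT and DKO cells, with standard errors and filled points for called genes. All points lie below 0, with Trbv12-1, Trbv14 and Trbv17 among the lowest and Trbv1 and Trbv19 among the highest in both genotypes. Trbv4, Trbv14 and Trbv24 passed the limit on the mean through their unstimulated libraries alone.

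A pair of Trav genes was called lower after stimulation in each genotype. In WT cells they were Trav3-3, with 51.8 and 25.1 against 5.46 and 14.4 (-1.89, adjusted p = 0.0461), which shares 118 of its 369 runs of 50 bases with other V genes, and Trav5-4, with 56.1 and 53.2 against 13.2 and 15.9 (-1.84, adjusted p = 0.0416). In DKO cells they were Trav19, with 24.1 and 22.7 against 7.94 and 3.38 (-1.96, adjusted p = 0.0426), and Trav13n-4, with 19.9 and 14.7 against 1.59 and 0.840. Trav13n-4 had 2 reads and 1 read in the stimulated DKO libraries, under the floor of 3 reads per library, so no fold is given, and its symbol marks it as one of the duplicated copies. Trav19 and Trav13n-4 both passed the limit on the mean through their unstimulated libraries alone, and Trav3-3 had a mean of 9.945 in stimulated WT libraries, below the limit. Trav3-3 and Trav5-4 were named after their values were seen. None of these 4 genes was called in the other genotype, and the adjusted p in the other genotype was 0.802 for Trav3-3, 0.0603 for Trav5-4, 0.201 for Trav19 and 0.982 for Trav13n-4.

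Shares of the Trbv level also differed between the states. Trbv3 led all 4 unstimulated libraries, with 9.08% to 10.7%, whereas Trbv2 led 3 of the 4 stimulated ones, and Trbv19 led the fourth, WT replicate 2, with 17.8%. The share of Trbv2 was 8.89% to 10.5% unstimulated and 12.2% to 13.5% after stimulation. Trbv1 went from between 5.01% and 7.44% to between 9.79% and 11.5%, and Trbv19 from between 5.08% and 7.15% to between 9.05% and 17.8%. For these 3 genes every stimulated library of either genotype lay above every unstimulated one. The opposite held for Trbv12-1, with 3.50% to 7.18% before and 1.43% to 2.42% after, for Trbv12-2, with 6.17% to 8.89% and 3.26% to 5.33%, and for Trbv15, with 7.74% to 8.98% and 5.17% to 6.47%. It also held for Trbv17, with 2.10% to 2.78% and 0.365% to 1.60%, and for Trbv14, with 1.51% to 2.17% and 0.496% to 0.875%. Trbv14 passed the limit on the mean through its unstimulated libraries alone, so the limit favoured a lower share after stimulation. Trbv17 had a mean of 6.875 normalized counts in stimulated WT libraries, with 4 reads in replicate 1. The effective number of Trbv genes was 16.7 to 16.8 in the 4 unstimulated and 14.0 to 15.8 in the 4 stimulated libraries. Its group means went from 16.8 to 14.6 in WT and from 16.8 to 15.3 in DKO cells. Over only the 9 members with a mean of at least 100, the difference was -0.42 and -0.46. With genes added up by subfamily it was -0.93 and -0.49, each on a smaller scale. The effective number of Trav genes was 34.6 to 36.2 and 29.2 to 34.9, so these states overlapped. The lowest Trav value was in stimulated DKO replicate 2, where Trav5-1 held 10.9%.

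**Figure D5:**
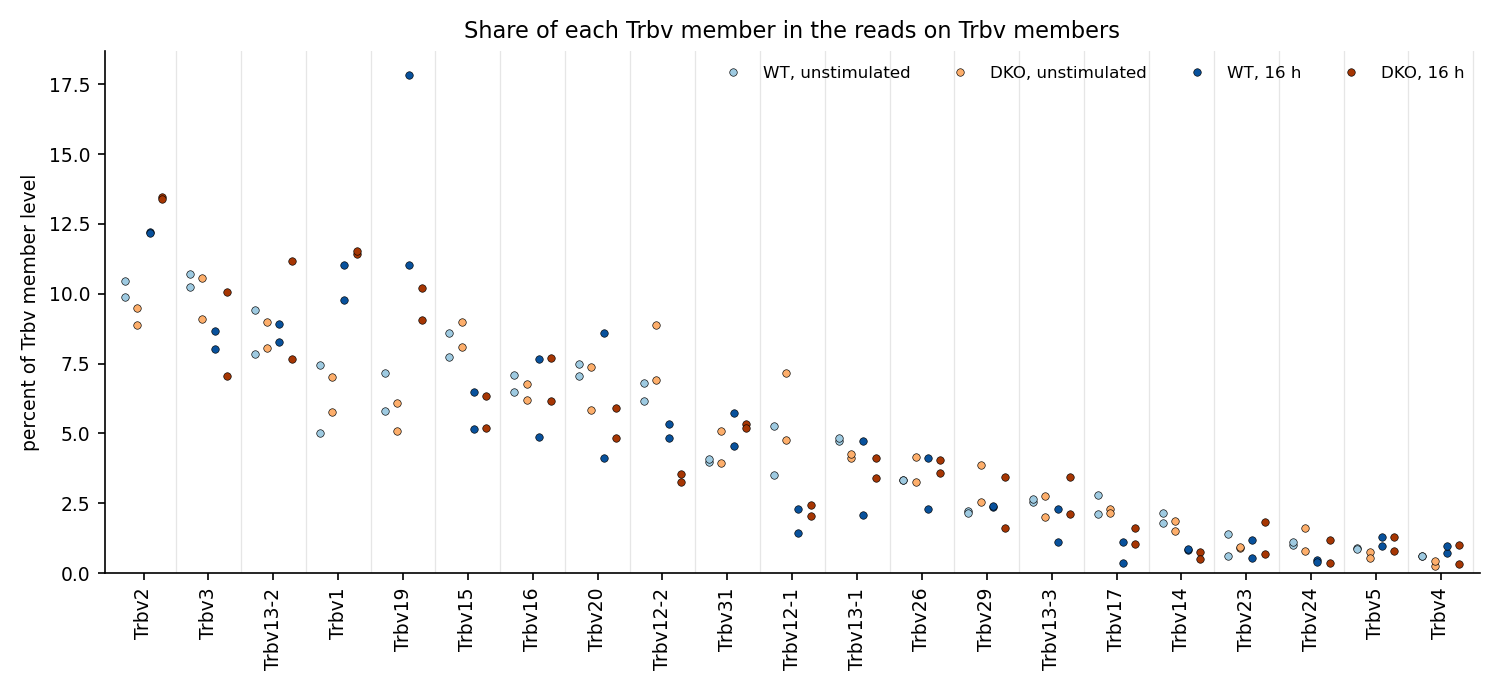
Share of each of the 21 Trbv members in the summed Trbv level of each library (percent, 1 point per library), ordered by mean level. Trbv1, Trbv2 and Trbv19 take larger shares in the dark stimulated points, up to 17.8% for Trbv19 in 1 WT library, and Trbv12-1, Trbv12-2, Trbv14, Trbv15 and Trbv17 take smaller ones. Trbv14 passed the limit on the mean through its unstimulated libraries alone, and Trbv17 had a mean of 6.875 normalized counts in stimulated WT libraries.

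Between genotypes, no single V gene was called. The limma fit called 0 of 62 members in unstimulated cells, against 4.73% of all genes, 0 in stimulated cells, against 0.272%, and 0 for genotype averaged over both states, against 8.33%. At an unadjusted p under 0.05 there were 0 members in unstimulated cells, against 22% of all genes, 4 Trav and 3 Trbv members in stimulated cells, against 13.7%, 1 of each chain averaged over states, against 24.7%, and 1 Trav member for the interaction, against 8.15%. DESeq2 on recovered reads called 1 Trav member higher in stimulated DKO cells and 1 averaged over states, and edgeR called 0 in each. The smallest adjusted p in stimulated cells was that of Trav15-1-dv6-1, a V gene that can also join to delta. It had 0.780 and 3.80 normalized counts in stimulated WT and 15.1 and 53.2 in stimulated DKO libraries (adjusted p = 0.151). The stimulated WT values are 1 read and 5 reads, so no fold is given, and with a mean of 8.25 over the 4 WT libraries the gene passed the limit through the libraries labelled DKO. In unstimulated cells it had 15.1 and 13.3 against 41.9 and 8.01, which overlap. It was named after its values were seen, and it is the member that DESeq2 called in each case (adjusted p = 0.0334 and 0.0313). Averaged over states, limma called it without unstimulated DKO replicate 2 (adjusted p = 0.0467). Without stimulated DKO replicate 1, limma called Trav5-1 instead, at 2.41 in stimulated cells and 1.35 averaged over states (adjusted p = 0.0327 and 0.0310), where the one stimulated DKO library left is that with 102 normalized counts.

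Trav15-2-dv6-2, the row just below the limit, had a similar run of values, 4.32 and 1.48, 18.9 and 6.68, 0 and 0.760, and 14.3 and 32.9. Genes of the gamma and delta loci are set beside them. Trdc, the delta constant gene, had 41.0 and 63.5 in unstimulated WT against 217 and 131 in unstimulated DKO libraries, and 159 and 28.1 against 195 and 117 after stimulation. The 6 tested genes of the gamma and delta loci had a log2 fold change above 0 for genotype in both states, where 49.7% of all genes did in unstimulated and 51.4% in stimulated cells, and none was called. In unstimulated cells several were high in DKO replicate 1, the library with the most macrophage and B cell RNA. Tcrg-C1, a gamma constant gene, had 25.9 and 26.6 in WT against 142 and 36.1, and Tcrg-C2, another, had 12.95 and 13.3 against 90.2 and 9.35, so DKO replicate 2 lay below WT. The part of gamma delta cells or of that library in the levels of Trav15-1-dv6-1 was not tested.

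In sum over the chain, the Trbv genes were higher in the libraries labelled DKO. As given above, both DKO libraries exceeded both WT libraries in each state, by a ratio of means of 1.18 unstimulated and 1.47 stimulated, and the exact permutation test of genotype within states, over 36 arrangements, gave a 2-sided p = 0.0556, the smallest it can give. For the Trav sum, the ratios were 0.918 and 1.12 with overlapping libraries (exact permutation p = 0.889). The ratio of Trbv to Trav did not overlap between genotypes in either state and was 1.28 and 1.32 times as high in DKO libraries (exact permutation p = 0.0556). Without unstimulated DKO replicate 1, the library with the most macrophage RNA, the log2 ratio of the Trbv sums was 0.13 in place of 0.23 in unstimulated cells, and the difference of Trbv to Trav 0.32 in place of 0.35.

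The direction of single Trbv genes was mostly that of their sum, with a log2 fold change of genotype above 0 for 18 of 21 in unstimulated and 19 of 21 in stimulated cells, and for 19 and 25 of 41 Trav members, against 49.7% and 51.4% of all genes. In stimulated cells both DKO libraries exceeded both WT libraries for 14 of 21 Trbv members and fell below them for 0, where 24.3% and 23.1% of all genes did, and for 7 and 6 of 41 Trav members. In unstimulated cells the numbers were 6 and 1 for Trbv and 7 and 10 for Trav, where 26.5% and 27.1% of all genes did. In both states, Trbv12-1, Trbv15, Trbv26 and Trbv31 (Trbv26 and Trbv31 named after their values were seen) were higher in both DKO libraries, 4 of 21, against 9.59% of all genes, and no Trbv gene was lower, against 11.8%. Trbv15 had 226 and 185 against 256 and 246 unstimulated, and 55.3 and 49.4 against 81.8 and 70.9 stimulated, with log2 fold changes of 0.30 and 0.53 (standard error 0.29, adjusted p = 0.604 and 0.469). Among the leaders, Trbv2 differed in stimulated cells by 0.69 (standard error 0.26, adjusted p = 0.261) and Trbv1 by 0.69 (standard error 0.33, adjusted p = 0.391). Over the chain, the median log2 fold change of genotype was 0.17 unstimulated and 0.65 stimulated for Trbv and -0.09 and 0.06 for Trav, beside -0.01 and 0.02 over all genes. In shares of the chain, no Trbv member lay on the same side of WT in both states, and of 41 Trav members 2 were higher and 2 lower. Shares of a chain have no counterpart over all genes. In levels, 9.59% of all genes were higher and 11.8% lower in both states.

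None of the constant genes was called between genotypes (limma adjusted p of 0.147 for Trbc2 and 0.178 for Trbc1 in stimulated and of 0.191 for Trac in unstimulated cells). Trbc1 and Trbc2 together had 3839 and 4278 normalized counts in stimulated WT against 5985 and 6506 in stimulated DKO libraries, a ratio of 1.54. In unstimulated cells they had 10012 and 8486 against 9586 and 8385, which overlap. Trac, the alpha constant gene, had 5339.6 and 5080.1 against 3729 and 4087 unstimulated, a ratio of 0.750, and 3314 and 3965 against 3792 and 4282 stimulated, which overlap. The ratio of Trbc to Trac was higher in both DKO libraries in each state, at 2.57 and 2.05 against 1.88 and 1.67, and at 1.58 and 1.52 against 1.16 and 1.08 (exact permutation p = 0.0556). Set against the constant genes, the Trbv level was 26.2% and 28.1% of Trbc in unstimulated WT and 33.0% and 32.6% in unstimulated DKO libraries, and 22.3% and 22.3% against 21.6% and 20.9% after stimulation.

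The other genes of the receptor gave few calls. Of the 7 genes of the receptor complex, the fit called 3 lower after stimulation in WT cells, against 13.1% of all genes. These were Trbc1 (-1.12), Trbc2 (-1.23) and Cd3g (-0.93). In DKO cells it called 2 lower, Trbc1 (-0.66) and Cd3g (-0.71), against 12% of all genes. Trac, Cd3e, Cd3d and Cd247, which encode the alpha constant region and signalling subunits, were called in neither. Of the 3 coreceptor genes, Cd4 was called lower in both, at -1 and -0.88. Over all these receptor genes, the 6 called lower in WT cells became 2 without either stimulated WT library or unstimulated WT replicate 3 and 3 without replicate 4, and the 7 in DKO cells became 3 without stimulated replicate 2, unstimulated DKO replicate 1 or either unstimulated WT library, and 4 without stimulated DKO replicate 1 or either stimulated WT library. The 60 alpha joining segments, of which 51 were tested, summed to 1742 and 2176 in unstimulated WT against 3793 and 3622 in unstimulated DKO libraries, 1.89 times as much, while 48 of the 51 had a log2 fold change above 0, against 49.7% of all genes. Of the 51, 2 were called, Traj1 (2.31) and Traj25 (1.39), where 4.73% of all genes were. No receptor gene was called without unstimulated DKO replicate 1, either unstimulated WT library or either stimulated WT library, and 1 was without unstimulated DKO replicate 2. After stimulation their sums overlapped, at 1883 and 2169 against 1962 and 2639.9. In DKO cells, 45 of the 51 had a log2 fold change below 0 after stimulation, against 51.3% of all genes. Of the 51, 3 were called lower, Traj11 (-1.57), Traj17 (-1.03) and Traj18 (-1.90), where 12% of all genes were. In WT cells, 25 of the 51 were below 0, against 49.7% of all genes, and 0 were called lower, against 13.1%. An unadjusted p under 0.05 was reached by 3, for which no share over all genes is given. The delta V gene Trdv1, 1 of 6 tested genes of the gamma and delta loci, was called lower in WT cells (-2.40, adjusted p = 0.0299). The 14 beta joining segments had 1 called lower after stimulation in each genotype, Trbj2-4 in WT (-1.67) and Trbj1-2 in DKO cells (-1.61), where 13.1% and 12% of all genes were, and none by genotype. Rag1, Rag2, Dntt and Ptcra, which act while receptor genes are assembled in the thymus, stayed below a mean of 10 and were not tested.

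Few reads were assigned to the V genes of invariant T cells. Trav11 and Trav11d, used by invariant natural killer T cells with Traj18, had 0 reads in every library, where 3 reads, the floor, equal 2.28 to 4.43 normalized counts. The third copy, Trav11n, had 0 to 5.24. These are copies of one gene, and by the methods, reads that match several copies were not kept. Traj18 itself, which other alpha chains can use too, had 70.2 and 75.3 in unstimulated WT against 160.4 and 127 in unstimulated DKO libraries, and 49.9 and 71.4 against 40.5 and 34.6 after stimulation, and was not called by genotype (adjusted p = 0.159 and 0.473). Trav1, used by mucosal-associated invariant T cells, had 10.8 and 17.7, 11.5 and 20.0, 3.12 and 19.7, and 16.7 and 5.91, with overlap between genotypes in both states.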

How the data were processed

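In all, 8 RNA sequencing libraries, 2 in each of 4 groups taken from the labels, were analysed. The methods describe single reads of 50 nt, aligned by the authors to NCBIM37 with Bowtie, kept if unique, freed of duplicates with Picard and counted with HTSeq. The submitters' processing notes name bcl2fastq 1.8.4, STAR 2.7, DESeq2 and mm10 instead, and the labels another library kit, so the pipeline is not settled. All 62 members are found in RefSeq GRCm38.p6 by symbol and 33 in GENCODE vM1. The deposited signal values, given to 2 decimals, are read counts that the authors scaled by a size factor of each library. Whole reads were recovered (within 0.0051 normalized counts) from 100% of the values in 7 libraries and 99.9957% in the other, and 1 read equals 0.759 to 1.48 normalized counts. A read across a V-J junction matches no germline sequence over its whole length, so the levels may rest mainly on reads within the V gene. Whether such junction reads were counted was not tested. The methods describe a pool of several mice for each sample, so p-values measure the spread between pools.

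Genes whose mean reached 10 normalized counts were tested in R 4.3.3 with limma 3.58.1, by lmFit and eBayes with its trend option, on log2 values after adding 1, with a spread shared by the 4 groups. The p-values were 2-sided and adjusted over all genes within a contrast. Sums and ratios were compared with an exact permutation of genotype within states. Members named are the 8 with the highest mean per chain, those called (up to 5 per direction after stimulation), those next to the limit, the invariant V genes and fixed receptor genes. A rule on shares (mean of at least 50, apart in the same direction in both states) named none. The members, lists and tests were chosen with earlier results of these data known. Alternatives were pseudocounts of 0.1 and 5, other filters and scalings, edgeR 4.0.16 and DESeq2 1.42.0 on recovered reads, other thresholds, a replicate block and each library left out. On simulated data with 200 of 15419 genes changed 4-fold in unstimulated DKO libraries, 192 of the 207 limma calls were changed genes, as were 189 of 196 by edgeR and 175 of 188 by DESeq2. The simulation gave all genes the same spread setting and no effect of stimulation. It therefore checks the running of the fits and not their power for the V genes here.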

Additional observations from a re-analysis of the deposited data

Results flagged for a closer look

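No group has enough libraries for a test of single outlying samples. A few results were marked because the libraries labelled DKO lay on one side of WT in unstimulated cells and on the other side in stimulated cells. All 62 members, by share and by level, and the chain values were screened. In levels, 26.5% of all genes were higher and 27.1% lower in both DKO libraries in unstimulated cells, and 24.3% and 23.1% in stimulated cells. Opposite moves over all genes were not counted, so the marked genes are not set apart from other genes. These opposite moves were not tested as differences, and the limma interaction called none of the members. The share of Trbv2 had a log2 ratio of DKO over WT of -0.15 unstimulated and 0.14 stimulated, and that of Trbv12-2 had 0.28 and -0.58. The share of Trav14-3 had 0.92 and -0.46. For Trav8-2, the member nearest to the limit on the mean, the log2 ratio was 1.04 and -1.5 for the share and 0.99 and -1.39 for the level, on 4 to 23 reads per library. The level of Trav6-4 moved the other way, at -0.77 and 0.63. The Trbv level as a percent of Trbc1 and Trbc2 had 0.27 and -0.068.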

How the results depend on the processing

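Every group has 2 libraries, and stimulation cannot be told apart from lane. Trav genes have few reads each, so a small difference in one of them was not detectable at this depth. Against the alternatives, 535 single-gene values kept their direction and side of the threshold, 138 lost and 3 gained significance and 4 turned sign, and 550 summary values moved little and 94 moved further. For each change below, the cause was not tested.

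V genes called lower after stimulation numbered 17 in WT and 13 in DKO cells. They numbered 7 and 6 when only genes reaching a mean of 100 were fitted, 11 and 6 after rescaling to equal totals, and 7 and 5 in DKO cells over every gene above 0 and with the 4 libraries of the contrast alone. Leaving out 1 library gave 4 to 18 in WT and 5 to 10 in DKO cells. None was called higher under any alternative. By genotype, DESeq2 called 1 higher in stimulated cells and 1 averaged over states, and leaving out 1 library gave 0 to 1 in each. Without adjustment, 6 were higher and 1 lower in stimulated cells, 2 higher averaged over states, and 1 lower for the interaction.

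Other receptor genes called higher in unstimulated DKO cells numbered 2, against 0 by edgeR, over every gene above 0, with a mean of at least 100 or with 4 libraries alone, 23 without adjustment, and 0 to 3 without 1 library. In stimulated cells there were 2 without adjustment and 0 to 1 without 1 library. Averaged over states the count of 1 became 4 by DESeq2, 0 over every gene or with a mean of at least 100, 2 with equal upper quartiles or quantile normalization, 15 without adjustment, and 0 to 5 without 1 library. The interaction had 1 higher and 7 lower without adjustment. After stimulation in WT cells, 3 were higher with equal totals, 1 with 4 libraries alone and 1 without adjustment, and 2 lower with equal totals, 11 without adjustment and 2 to 6 without 1 library. In DKO cells, 1 was higher without adjustment, and lower were 4 over every gene, with a mean of at least 100 or at 2-fold, 2 with equal totals or 4 libraries alone, 15 without adjustment, and 3 to 5 without 1 library.

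With equal totals the log2 fold change of stimulation turned to 0.17 for Trbv19 in WT, and to 0.10 for Trbv1 and 0.033 for Trbv19 in DKO cells. Trbv19 in WT ran from -0.77 to 0.074 without 1 library. The log2 ratio of summed Trbv after stimulation was -0.95 in WT and -0.77 in DKO cells with equal totals, and -0.29 and -0.62 relative to Trbc, and that of genotype in stimulated cells was -0.068 relative to Trbc. Summed Trav after stimulation had -0.23 and -0.072 with equal totals and -0.23 in WT relative to Trac, and 0.30 for genotype in unstimulated cells relative to Trac. The effective number of Trbv genes differed by genotype in unstimulated cells by 0.18 as the inverse Simpson index, -0.15 by subfamily and 0.17 at equal depth. After stimulation its group means over all Trbv members went from 16.8 to 14.6 in WT and from 16.8 to 15.3 in DKO cells. The difference was -0.42 and -0.46 over members with a mean of at least 100, and -0.93 and -0.49 by subfamily. As the inverse Simpson index it was -2.14 in DKO cells. The effective number of Trav genes differed by -3.76 in WT cells over every Trav gene with reads. No Trav member has a mean of 100, so that alternative gave no value for Trav. The alternatives for the ratio of Trbv to Trav and for the other receptor genes were chosen after seeing the data.

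With the replicate number as a replicate block in stimulated cells, 0 V genes were called by genotype, as without it. The deviations of same-numbered stimulated libraries had a correlation of 0.167 over the tested genes, from 2 pairs. In both genotypes, however, the lower-numbered stimulated library held more B cell RNA. The marker sums were 959 against 180 in WT and 1444 against 264 in DKO libraries. Whether same-numbered libraries share a pool or a sort is not stated and was not tested. The unstimulated groups share no replicate number. The DKO libraries, however, are numbered 1 and 2 in both states. Unstimulated DKO replicate 1 also held more B cell RNA than replicate 2, at 2690 against 581. The stimulation contrast in DKO cells was fitted as unpaired, and a pairing by replicate number was not tested.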

Other observations

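Some high values come from 1 library of a group. In stimulated DKO replicate 2, Trav5-1 had 102 normalized counts against 14.8 to 56.1 in the other libraries, and Trav23, which is below the limit on the mean, had 13.5 against 0 in all others. They were picked after their values were seen. Stimulated WT replicate 2 had the highest share of Trbv19, with 17.8% of the Trbv level against 5.08% to 11.0% in the other 7.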
